A study of Mus musculus with 9 samples.

Results

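Hypoxia and glycolysis genes were followed across 9 Affymetrix mouse expression arrays of granulosa cell RNA, in 3 groups of 3. The cells were taken by needle puncture from ovaries of mice aged 20 to 26 days, 48 h after eCG, a gonadotropin that drives follicle growth. They were cultured without serum and infected for 24 h with an adenovirus. The viruses expressed GFP (the control group), expressed Cre recombinase, or overexpressed WNT4. All 3 groups therefore carried an adenovirus, at a multiplicity of infection of about 50. The Cre virus is described as recombining floxed alleles of Ctnnb1, the beta-catenin gene. The mice are described only as being of various genotypes, and the genotype behind each array is not stated in the labels. The infected cells were primary cultures, so each array reads a population in which not every cell need carry the virus. Replicates are labelled biological, but whether each had its own animals or culture is not stated. The p-values then measure only how far these arrays differ, which may be technical in part. Arrays are named below by group and replicate number, for example Cre 3.

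The set held 36 named genes, and 33 of them had a probe set that carries their symbol alone, of 18193 genes with such a probe set. Bnip3l and Loxl2 shared their probe sets with other symbols and were given no value, and Gpi1 was not analysed here. Where a gene had several probe sets, the one of highest mean over all 9 arrays was used. The genes were chosen on results of these same arrays, with Cre 3 and WNT4 3 already known to stand apart in them. Their values on those arrays, and every count of members below, are therefore a description, and no test of the members is used as support.

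Cells short of oxygen stabilise the transcription factor HIF-1, whose alpha subunit is otherwise hydroxylated by prolyl hydroxylases and destroyed through the VHL ubiquitin ligase. HIF-1 binds a short DNA core and raises genes for glucose uptake, glycolysis, lactate export, blood vessel growth and mitochondrial turnover, and among its targets are the prolyl hydroxylases themselves. In the ovary, granulosa cells lie in a follicle wall without vessels, and Vegfa from them is known to guide the vessels of the surrounding theca.

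The values were log2 expression values, on which 1 unit is a 2-fold difference. On 6 of the 9 arrays the median of the 33 genes lay within 0.15 of the GFP mean, and on Cre 3 and WNT4 3 most of the genes lay far above it. The median of the members relative to the GFP mean was -0.06, -0.10 and 0.14 on the GFP arrays, -0.10, 0.13 and 2.36 on the Cre arrays and 0.63, 0.15 and 2.82 on the WNT4 arrays. As folds, the medians were 5.15 on Cre 3, 7.08 on WNT4 3 and 1.55 on WNT4 1. WNT4 1 was thus the next highest array, although quantile normalization took its median to 0.19, while those of Cre 3 and WNT4 3 stayed at 2.31 and 2.49. The deposited values of the 6974 probe sets whose mean was 9 or more also had a raised median on WNT4 1 (0.43) and on WNT4 3 (0.26), but not on Cre 3 (0.03).

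**Figure D1:**
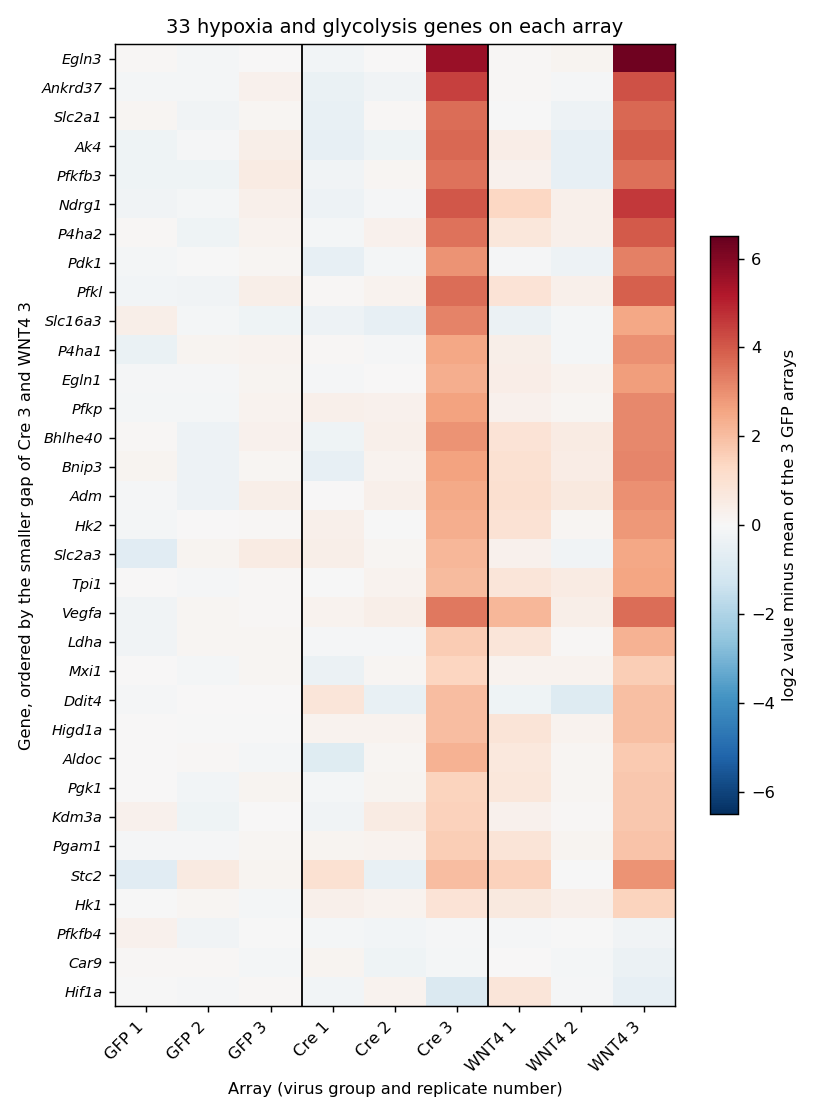
Log2 value of each of the 33 genes (rows) minus its mean over the 3 GFP arrays, on each of the 9 arrays (columns); red is above the GFP mean and blue below. The columns of Cre 3 and WNT4 3 are red in nearly every row, with members' medians of 2.36 and 2.82, while Pfkfb4, Car9 and Hif1a at the bottom are not.

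For each array, the gap of a gene was taken as its value minus the higher of the other 2 arrays of the same group. The gap was over 1 for 28 of the 33 genes on Cre 3 and for 29 on WNT4 3, where 0.824% and 1.04% of all 45037 probe sets had such a gap. It was over 1 on both arrays for 28 genes (84.8%), beside 0.613% of all probe sets, a count that the choice of the genes fixes in part. It was over 1 for 0 genes on each of the other 7 arrays. Over all probe sets those arrays had shares of 0.0888% (GFP 1), 0.0955% (GFP 2), 0.149% (GFP 3), 0.169% (Cre 1), 0.164% (Cre 2), 0.859% (WNT4 1) and 0.0622% (WNT4 2). Gaps over 2 on both arrays were read for 15 genes and gaps over 3 for 8. Just inside the threshold lay Pgam1 and Kdm3a, each with a smaller gap of 1.01, Pgk1 with 1.03 and Aldoc with 1.05. Just outside it lay Stc2, with 0.99 on Cre 3 and 1.44 on WNT4 3.

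The promoters of the genes are shown first, because a HIF core in them is the DNA feature by which these genes are usually grouped. RefSeq promoters (GRCm38.p6) were found for 30 of the 33 members, in 43 windows, and none was matched for Ndrg1, Bhlhe40 and Slc2a3. The 250 bases before each start were searched on both strands for the cores that HIF binds, spelled ACGTG or, with another first base, GCGTG. A palindrome of the first core counts on each strand, and neighbouring cores can share letters. The 4 genes with 1 promoter and the largest smaller gaps are printed with 2 members that did not stand high on Cre 3 and WNT4 3. Each sequence runs 5′ to 3′ towards the start of the gene, with the cores or their reverse complements in capitals.
Egln3: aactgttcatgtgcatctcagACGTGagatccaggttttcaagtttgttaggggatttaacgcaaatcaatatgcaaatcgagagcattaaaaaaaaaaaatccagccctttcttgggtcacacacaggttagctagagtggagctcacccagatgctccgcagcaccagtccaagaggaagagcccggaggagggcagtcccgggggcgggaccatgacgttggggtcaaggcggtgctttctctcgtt
Ankrd37: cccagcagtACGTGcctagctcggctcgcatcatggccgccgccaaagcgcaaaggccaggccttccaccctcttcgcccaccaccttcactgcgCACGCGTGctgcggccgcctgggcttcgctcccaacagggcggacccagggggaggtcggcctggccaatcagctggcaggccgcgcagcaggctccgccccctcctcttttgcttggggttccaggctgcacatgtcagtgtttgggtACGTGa
Slc2a1: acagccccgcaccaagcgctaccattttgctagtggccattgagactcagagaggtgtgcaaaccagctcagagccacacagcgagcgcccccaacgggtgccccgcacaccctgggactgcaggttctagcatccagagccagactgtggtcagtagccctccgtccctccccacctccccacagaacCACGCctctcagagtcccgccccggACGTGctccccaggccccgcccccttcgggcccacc
P4ha2: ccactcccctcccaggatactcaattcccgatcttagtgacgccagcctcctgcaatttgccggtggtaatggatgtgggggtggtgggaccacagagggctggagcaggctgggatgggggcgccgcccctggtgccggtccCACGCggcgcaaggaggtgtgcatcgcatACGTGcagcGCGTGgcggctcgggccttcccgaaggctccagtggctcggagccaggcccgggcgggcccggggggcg
Car9: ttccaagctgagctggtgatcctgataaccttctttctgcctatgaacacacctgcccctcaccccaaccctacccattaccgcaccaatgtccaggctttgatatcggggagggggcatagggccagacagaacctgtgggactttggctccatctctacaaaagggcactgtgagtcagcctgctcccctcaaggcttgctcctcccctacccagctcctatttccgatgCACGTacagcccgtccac
Hif1a: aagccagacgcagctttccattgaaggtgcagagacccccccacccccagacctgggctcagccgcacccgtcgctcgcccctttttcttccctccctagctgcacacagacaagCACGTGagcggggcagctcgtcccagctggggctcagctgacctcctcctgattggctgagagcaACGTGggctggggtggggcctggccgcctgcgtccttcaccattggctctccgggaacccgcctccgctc
The Egln3 window is chr12:54203875-54204124, minus strand, and its 1 core begins 229 bases before the start. The Ankrd37 window is chr8:45999851-46000100, minus strand, with 4 cores, the nearest 6 bases before the start. The Slc2a1 window is chr4:119108495-119108744, plus strand, with 2 cores at 61 and 36 bases. The P4ha2 window is chr11:54100674-54100923, plus strand, with 3 cores at 107, 78 and 69 bases. The Car9 window is chr4:43506776-43507025, plus strand, with 1 core at 18 bases. The Hif1a window is chr12:73907617-73907866, plus strand, with 3 cores at 135, 134 and 70 bases.

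Of the 30 members with a promoter, 29 held a core in at least 1 window, and Tpi1 held none. By window, 83.7% of the 43 member promoters held a core, beside 38.6% of all 32851 promoters and 48.9% of the 18109 promoters of measured genes. ACGTG alone was in 48.8%, beside 16.6% of all promoters. Both cores contain a CpG, and member promoters were also richer in it, with a median of 17 CpG and 62.8% GC, beside 6 and 52.4% over all promoters. Among promoters with 11 to 24 CpG, the range between the members' quartiles, 88.5% of 26 member windows and 63.2% of 6937 windows of measured genes held a core. Windows are not independent, since those of 1 gene can overlap. Ak4 gave 4 of the 26, and most of these overlap and hold the same 2 cores. A core of either spelling was in 83.8% of the 37 windows of genes with a gap over 1 on both arrays. It was in 83.3% of the 6 windows of the rest. For ACGTG alone the shares were 51.4% and 33.3%. With 6 windows, the rest are too few to show whether a core separates the members by their values. Hif1a and Car9, printed above, are among the rest. A match says only that the letters are present.

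The secreted factors come first by role. Vegfa, the main growth factor for blood vessels, read 6.83, 7.14 and 7.14 on the GFP arrays, 7.25, 7.43 and 10.47 on the Cre arrays and 9.17, 7.43 and 10.65 on the WNT4 arrays. Adm, which encodes the vasodilator peptide adrenomedullin, read 9.26, 9.03 and 9.72 on the GFP arrays, 9.38, 9.67 and 11.81 on the Cre arrays and 10.37, 9.99 and 12.29 on the WNT4 arrays. Stc2, a secreted glycoprotein induced by several stresses, read 6.06, 7.35 and 6.94 on the GFP arrays, 7.78, 6.30 and 8.77 on the Cre arrays and 8.27, 6.75 and 9.71 on the WNT4 arrays. On Cre 3 and WNT4 3 all 3 genes were at their highest of the 9 arrays. Vegfa was also high on WNT4 1, at 9.17 beside 7.43 on WNT4 2, and Stc2 differed among the lower arrays as well.

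Both glucose transporters and the lactate exporter were high on the same 2 arrays and no other. Slc2a1, which encodes the glucose transporter GLUT1, read 8.88, 8.56 and 8.87 on the GFP arrays, 8.30, 8.83 and 12.43 on the Cre arrays and 8.72, 8.42 and 12.51 on the WNT4 arrays. Slc2a3, which encodes GLUT3, read 5.05, 6.0 and 6.34 on the GFP arrays, 6.20, 5.91 and 7.98 on the Cre arrays and 6.05, 5.55 and 8.30 on the WNT4 arrays. Slc16a3, which encodes the lactate exporter MCT4, read 5.75, 5.25 and 5.09 on the GFP arrays, 5.02, 4.85 and 8.57 on the Cre arrays and 4.97, 5.26 and 7.86 on the WNT4 arrays. For Slc2a1 the gap amounted to 12.1-fold on Cre 3 and 13.8-fold on WNT4 3. Slc16a3 read below the array medians (5.44 to 5.54) on the other Cre and WNT4 arrays, where a probe set need not be above background, so its gaps were at least 11.7-fold and at least 6.07-fold. Slc16a3 was 1 of 7 members that were higher on Cre 3 than on WNT4 3, against 26 the other way.

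Enzymes of the upper part of glycolysis were less uniform. Hk2, the inducible hexokinase that traps glucose in the cell, read 8.88, 9.04 and 9.10 on the GFP arrays, 9.35, 9.0 and 11.35 on the Cre arrays and 9.93, 9.12 and 11.83 on the WNT4 arrays. Pfkl and Pfkp are the liver and platelet forms of phosphofructokinase, which commits sugar to glycolysis. Pfkl read 9.05, 8.98 and 9.59 on the GFP arrays, 9.30, 9.43 and 12.85 on the Cre arrays and 10.09, 9.56 and 13.08 on the WNT4 arrays. Pfkp read 9.15, 9.14 and 9.48 on the GFP arrays, 9.60, 9.51 and 11.87 on the Cre arrays and 9.53, 9.41 and 12.38 on the WNT4 arrays. All 3 genes had gaps of at least 1.90 on both arrays and separated those arrays from the other 7. Pfkfb3, whose product makes the activator of phosphofructokinase, read 6.24, 6.22 and 7.03 on the GFP arrays, 6.29, 6.62 and 10.04 on the Cre arrays and 6.76, 5.95 and 10.07 on the WNT4 arrays. Aldoc, an aldolase, read 7.04, 7.06 and 6.88 on the GFP arrays, 6.22, 7.14 and 9.25 on the Cre arrays and 7.66, 7.14 and 8.70 on the WNT4 arrays. Aldoc was higher on Cre 3 than on WNT4 3. The housekeeping hexokinase Hk1 read 8.83, 8.99 and 8.76 on the GFP arrays, 9.21, 9.07 and 9.76 on the Cre arrays and 9.49, 9.18 and 10.33 on the WNT4 arrays, so it was highest on the same 2 arrays with gaps of only 0.55 and 0.84. Pfkfb4, a relative of Pfkfb3, read 7.37, 6.85 and 7.07 on the GFP arrays, 6.99, 6.93 and 7.0 on the Cre arrays and 7.0, 7.10 and 6.87 on the WNT4 arrays. Its 3 groups overlapped, and Cre 3 and WNT4 3 lay within the range of the other arrays.

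The lower enzymes of the pathway had gaps from 1.01 to 1.83 on the probe sets used. Tpi1, triosephosphate isomerase, read 12.06, 11.94 and 12.09 on the GFP arrays, 12.01, 12.27 and 14.10 on the Cre arrays and 12.83, 12.54 and 14.61 on the WNT4 arrays. Pgk1, the first ATP-making enzyme of the pathway, read 12.59, 12.36 and 12.72 on the GFP arrays, 12.43, 12.73 and 13.99 on the Cre arrays and 13.29, 12.70 and 14.32 on the WNT4 arrays. Pgam1, phosphoglycerate mutase, read 11.72, 11.72 and 11.93 on the GFP arrays, 11.98, 12.03 and 13.41 on the Cre arrays and 12.65, 11.98 and 13.66 on the WNT4 arrays. On each of the 3 probe sets Cre 3 and WNT4 3 were the top arrays, and WNT4 1 came next. Ldha, which turns pyruvate into lactate, read 11.61, 11.97 and 12.01 on the GFP arrays, 11.80, 11.78 and 13.53 on the Cre arrays and 12.67, 11.93 and 14.10 on the WNT4 arrays, in the same order.

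Pdk1 and Ak4 act where glycolysis meets the mitochondrion. Pdk1, the kinase that switches off pyruvate dehydrogenase and so keeps pyruvate out of the citric acid cycle, read 8.37, 8.47 and 8.64 on the GFP arrays, 7.96, 8.38 and 11.42 on the Cre arrays and 8.41, 8.18 and 11.77 on the WNT4 arrays. Ak4, a mitochondrial adenylate kinase, read 7.81, 8.01 and 8.48 on the GFP arrays, 7.57, 7.82 and 11.84 on the Cre arrays and 8.52, 7.56 and 12.03 on the WNT4 arrays. Both had low values on WNT4 1 as well as on the rest, so that 2 arrays stood alone. Bnip3, which marks mitochondria for removal, read 11.25, 10.72 and 11.18 on the GFP arrays, 10.53, 11.26 and 13.68 on the Cre arrays and 12.02, 11.55 and 14.22 on the WNT4 arrays. Higd1a, a small protein of the respiratory chain, read 11.22, 11.13 and 11.16 on the GFP arrays, 11.40, 11.40 and 13.16 on the Cre arrays and 11.99, 11.40 and 13.13 on the WNT4 arrays. These were bright on all arrays and highest on the same 2, and WNT4 1 followed.

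**Figure D2:**
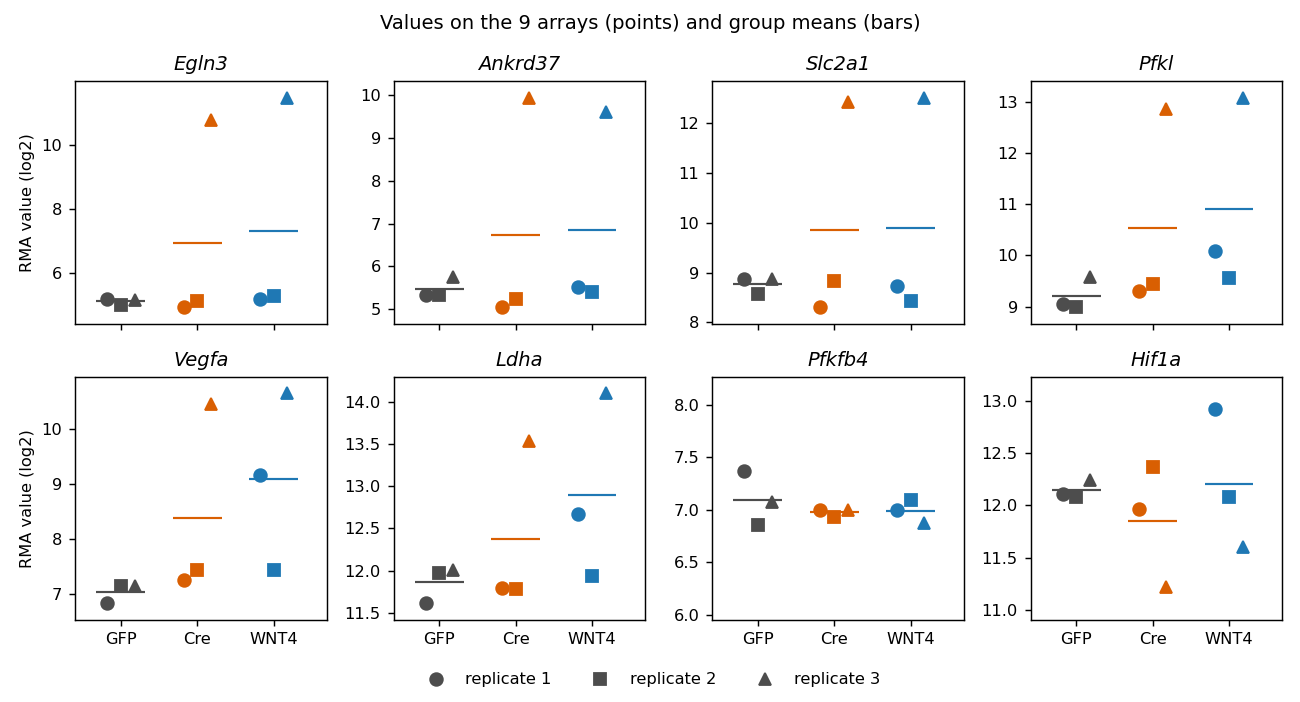
RMA values (log2, vertical axes, each panel with its own range) of 8 members on the 9 arrays; points are arrays, with the replicate number as the marker shape, and bars are group means. In Egln3, Ankrd37, Slc2a1, Pfkl, Vegfa and Ldha the triangles of Cre 3 and WNT4 3 lie above all other points, in Pfkfb4 they do not, and in Hif1a they are the lowest points.

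The genes of the oxygen-sensing loop held both the largest measured gaps and the one reversed member. Egln3, a prolyl hydroxylase (PHD3) that marks HIF alpha subunits for destruction and is itself a HIF target, read 5.19, 5.01 and 5.17 on the GFP arrays, 4.94, 5.15 and 10.76 on the Cre arrays and 5.19, 5.28 and 11.46 on the WNT4 arrays. On 7 arrays it lay between 4.94 and 5.28, below the median of every array, so that its gaps on Cre 3 and WNT4 3 are lower bounds. By this probe set it was at least 48.8-fold and at least 72.4-fold above the next array of its group. Its other, dimmer probe set (mean 5.31) had smaller gaps of 2.26 on Cre 3 and 2.59 on WNT4 3. Ankrd37, a HIF target encoding an ankyrin repeat protein, read 5.34, 5.32 and 5.76 on the GFP arrays, 5.05, 5.25 and 9.93 on the Cre arrays and 5.53, 5.42 and 9.60 on the WNT4 arrays. Egln1, the prolyl hydroxylase PHD2, read 9.92, 9.91 and 10.19 on the GFP arrays, 9.95, 10.03 and 12.37 on the Cre arrays and 10.42, 10.23 and 12.71 on the WNT4 arrays. Kdm3a, a histone demethylase, read 10.56, 10.02 and 10.29 on the GFP arrays, 10.09, 10.80 and 11.81 on the Cre arrays and 10.56, 10.35 and 12.04 on the WNT4 arrays. Each of these was high on Cre 3 and WNT4 3 and on no other array, Kdm3a by the smallest margin.

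Hif1a, the alpha subunit of HIF-1, went the other way. It read 12.11, 12.08 and 12.25 on the GFP arrays, 11.96, 12.37 and 11.22 on the Cre arrays and 12.92, 12.08 and 11.60 on the WNT4 arrays. Cre 3 and WNT4 3 were the lowest of the 9 arrays, and WNT4 1 was the highest. Of its other 3 probe sets, those with means of 10.39 and 8.24 were also lowest on those 2 arrays. The third, with a mean of 5.02, was higher there, with gaps of 1.22 and 1.01. HIF-1 is controlled mainly through the stability of this subunit, which RNA does not report.

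Regulators of growth and stress were high on the same arrays. Ndrg1, a gene widely used as a marker of hypoxia, read 8.37, 8.49 and 8.93 on the GFP arrays, 8.29, 8.53 and 12.64 on the Cre arrays and 9.92, 8.93 and 13.18 on the WNT4 arrays. Bhlhe40, a repressor of transcription, read 7.76, 7.32 and 7.94 on the GFP arrays, 7.39, 8.02 and 10.60 on the Cre arrays and 8.57, 8.21 and 10.81 on the WNT4 arrays. Both lay above the GFP range on WNT4 1 too, by far less than on WNT4 3. Mxi1, an antagonist of MYC, read 10.25, 10.09 and 10.34 on the GFP arrays, 9.87, 10.38 and 11.63 on the Cre arrays and 10.46, 10.46 and 11.85 on the WNT4 arrays. Ddit4 (REDD1), which inhibits mTORC1, read 9.43, 9.53 and 9.52 on the GFP arrays, 10.28, 9.02 and 11.48 on the Cre arrays and 9.23, 8.67 and 11.44 on the WNT4 arrays. Ddit4 was high on Cre 1 as well, and its 2 lower WNT4 arrays lay below every GFP array.

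The last group modifies collagen and pH. P4ha1 and P4ha2 encode the catalytic subunits of collagen prolyl 4-hydroxylase. P4ha1 read 8.39, 8.95 and 9.05 on the GFP arrays, 8.87, 8.70 and 11.30 on the Cre arrays and 9.17, 8.69 and 11.77 on the WNT4 arrays. P4ha2 read 8.05, 7.71 and 8.19 on the GFP arrays, 7.83, 8.24 and 11.54 on the Cre arrays and 8.70, 8.31 and 11.96 on the WNT4 arrays. For P4ha1 the 7 other arrays lay between 8.39 and 9.17, and for P4ha2 between 7.71 and 8.70. Car9, which encodes carbonic anhydrase IX and is a HIF target in many tumour cells, read 5.92, 5.92 and 5.75 on the GFP arrays, 6.05, 5.57 and 5.75 on the Cre arrays and 5.86, 5.71 and 5.49 on the WNT4 arrays. It was among the dim probe sets (mean under 6), and its values on Cre 3 and WNT4 3 did not exceed those of the other arrays.

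The 33 members were measured by 73 probe sets, and 21 genes had more than 1. Of the 40 probe sets not used above, 19 of the 27 whose mean was 6 or more and 6 of the 13 dimmer ones had a gap over 1 on both arrays. Signs differed within some genes. The second Hk1 probe set (mean 6.51) was lower on both arrays than the higher of its group, by 0.67 and 0.82. The gaps of the third brightest probe set of Ak4 were 0.24 and -0.10, beside 4.01 and 3.50 for the one used. For Slc2a1 the 3 probe sets had gaps from 3.59 to 4.15, and for Ndrg1 the 5 had gaps from 1.78 to 4.28. The size of the Pgk1 gaps depended on the probe set. They were 1.26 and 1.03 on the one used, 2.06 and 1.93 on the next (mean 12.53) and 1.17 and 1.36 on the last (mean 11.33).

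**Figure D3:**
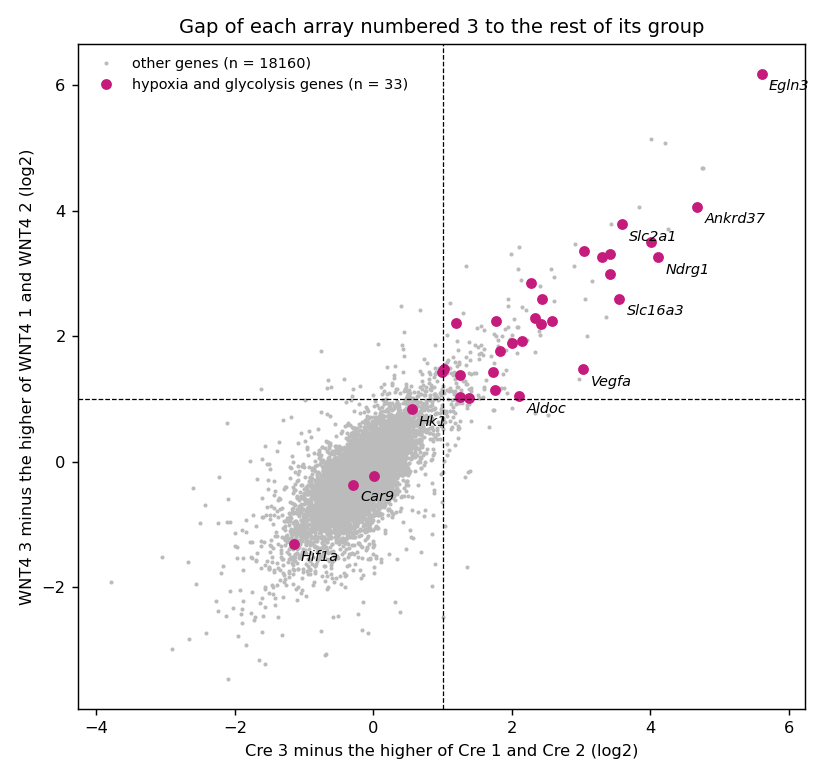
Gap of Cre 3 (horizontal axis, log2) against gap of WNT4 3 (vertical axis, log2) for the 18193 genes, each the value minus the higher of the other 2 arrays of its group; dashed lines mark gaps of 1. Of the 33 hypoxia and glycolysis genes, 28 lie beyond both lines, among them Aldoc (2.10 and 1.05) and Egln3 (5.61 and 6.18), and Hif1a lies at the lower left.

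The 2 arrays were alike in the size of their gaps. Across the 33 members the gaps of Cre 3 and WNT4 3 had a correlation of 0.93, and across all probe sets 0.71. Genes are not independent replicates, and the members were chosen with this pattern known. On 30 members the 2 arrays differed by less than 0.6 in value, and by 0.94 at most. WNT4 3 was higher by a median of 0.32, beside 0.02 over all probe sets. Bright probe sets (mean of at least 9) were also higher on WNT4 3, with medians of 0.26 there and 0.03 on Cre 3. After quantile normalization the members' medians were 2.49 and 2.31. Of the 18193 genes, 158 had a gap over 1 on both arrays, and 28 of these were members. By the smaller of the 2 gaps, members held 3 of the top 10 places, 9 of the top 20 and 21 of the top 100. Fewer features were low there: 38 genes, and 0.155% of all probe sets, lay over 1 below both other arrays of the group on Cre 3 and on WNT4 3, and 0 members did.

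The 10 genes outside the set with the largest smaller gaps are described next; they follow from the rank alone, and no list of inflammatory genes was tested. Cxcl2, a chemokine that draws neutrophils, read 4.54, 4.88 and 7.92 on the GFP arrays, 4.59, 4.71 and 10.46 on the Cre arrays and 5.0, 5.0 and 11.06 on the WNT4 arrays. Cxcl1 and Cxcl5, which act through the same receptor, had smaller gaps of 4.01 and 4.21, and Cxcl3 had 2.92. Clec4e, a pattern receptor of macrophages, read 4.19, 4.21 and 4.91 on the GFP arrays, 4.31, 4.35 and 9.09 on the Cre arrays and 4.20, 4.36 and 9.05 on the WNT4 arrays. Saa3, an acute phase protein, had a smaller gap of 4.68, Cd83, a surface protein of activated immune cells, 3.84, and Tnfaip3, a brake on NF-kappaB, 3.72. Cybb, the NADPH oxidase subunit of phagocytes, had 2.90. Hmox1, heme oxygenase, which many stresses induce, read 7.25, 7.32 and 7.70 on the GFP arrays, 8.02, 7.31 and 11.45 on the Cre arrays and 8.51, 7.45 and 12.30 on the WNT4 arrays. Unlike Egln3 or Slc2a1, the chemokine genes Cxcl2, Cxcl1 and Cxcl5 were also high on GFP 3, at 7.92, 10.77 and 6.54. So were Tnfaip3 (8.07) and Cd83 (7.14), and Cybb (5.68) less so, while Saa3 read 7.61 on GFP 1 and 7.74 on GFP 3. On GFP 3 the members' median was 0.14 above the GFP mean.

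Other genes of the pathway were read in lists. Known HIF targets outside the set had the same 2 high arrays in part: of 40 measured, 15 had a gap over 1 on Cre 3, 14 on WNT4 3 and 11 on both. Besides Hmox1 these were Ero1a, Pgm1, Tmem45a, Fam162a, Ppp1r3c, Gys1, Selenbp1, Lox, Gbe1 and Vldlr. Lox was nearly as high on GFP 2 (10.43) and GFP 3 (10.51) as on Cre 3 (10.94) and WNT4 3 (11.07). Its gap on WNT4 3 follows low values on WNT4 1 (7.26) and WNT4 2 (7.94). Ero1a, an oxidase for protein folding, read 8.82, 9.01 and 9.07 on the GFP arrays, 8.81, 8.95 and 12.03 on the Cre arrays and 10.34, 8.94 and 12.35 on the WNT4 arrays. Pgm1, which joins glycogen and glucose metabolism, read 9.72, 9.57 and 9.47 on the GFP arrays, 9.57, 9.80 and 12.01 on the Cre arrays and 10.03, 9.93 and 12.45 on the WNT4 arrays. Fam162a, a mitochondrial protein, read 11.31, 11.79 and 11.65 on the GFP arrays, 11.73, 11.36 and 13.67 on the Cre arrays and 11.67, 11.32 and 14.15 on the WNT4 arrays. All 3 were highest on Cre 3 and WNT4 3, and Ero1a was also high on WNT4 1. Gys1, Gbe1 and Ppp1r3c, which with Pgm1 serve glycogen synthesis, had gaps of 1.75 and 1.57, 1.23 and 1.56, and 1.77 and 2.22 on the 2 arrays. The list's median relative to the GFP mean was 0.87 on Cre 3 and 1.10 on WNT4 3.

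The other oxygen-sensing genes, listed for their part in that process, lacked such gaps. Of 16 such genes 0 had a gap over 1 on both arrays, and the list's median was -0.02 on Cre 3 and 0.20 on WNT4 3. Epas1, the gene of another HIF alpha subunit, was lowest on Cre 3 (6.90) and WNT4 3 (6.98), as Hif1a was. Its highest value was also on WNT4 1 (9.73), and it read 7.42 to 8.67 on the other arrays. Vhl, the ubiquitin ligase subunit that binds hydroxylated HIF, read 7.71, 7.93 and 8.27 on the GFP arrays, 7.93, 7.79 and 8.69 on the Cre arrays and 8.13, 7.75 and 8.88 on the WNT4 arrays. Siah2, a ligase that degrades prolyl hydroxylases, read 7.11, 7.67 and 7.81 on the GFP arrays, 7.72, 7.81 and 8.55 on the Cre arrays and 8.96, 7.64 and 9.49 on the WNT4 arrays. Their gaps, 0.76 and 0.75 for Vhl and 0.74 and 0.53 for Siah2, stayed under the threshold, and Siah2 was also high on WNT4 1. Of the 8 receptor genes for Vegfa and Adm 0 had such a gap.

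Among 13 remaining glycolysis genes, Aldoa and Pkm had gaps over 1 on both arrays, and the list's median was -0.09 on Cre 3 and -0.08 on WNT4 3. Aldoa, the main aldolase outside liver and brain, read 12.37, 12.44 and 12.82 on the GFP arrays, 12.51, 12.69 and 14.10 on the Cre arrays and 13.22, 12.98 and 14.63 on the WNT4 arrays. Pkm, pyruvate kinase, read 11.87, 11.50 and 11.85 on the GFP arrays, 11.67, 12.13 and 13.30 on the Cre arrays and 12.55, 12.31 and 13.98 on the WNT4 arrays. Of 14 genes of pyruvate oxidation and the citric acid cycle 0 had a gap over 1 on both arrays, with list medians of -0.15 on Cre 3 and 0.18 on WNT4 3. Pdk4 and Pdk3, other pyruvate dehydrogenase kinases, came nearest, with gaps on Cre 3 and WNT4 3 of 1.04 and 0.78 for Pdk4 and of 0.75 and 1.13 for Pdk3.

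**Figure D4:**
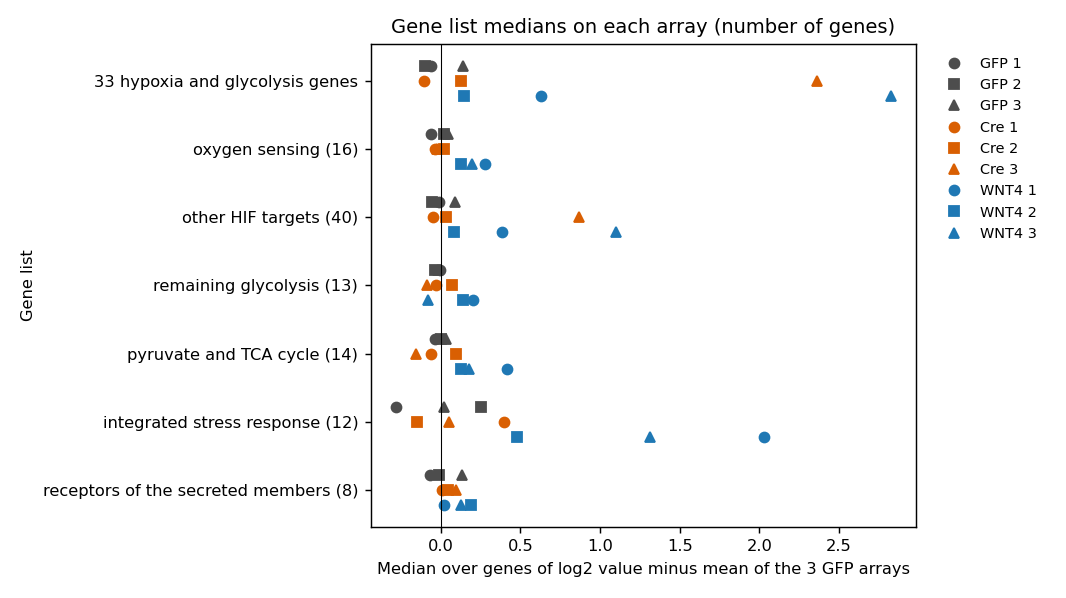
Median over the genes of each list of log2 value minus the mean of the 3 GFP arrays (horizontal axis), on each of the 9 arrays; the number of genes stands after the list's name, colours are virus groups and marker shapes are replicate numbers. Cre 3 and WNT4 3 stand apart in the 33 genes (2.36 and 2.82) and in the other HIF targets (0.87 and 1.10), while the integrated stress response is highest on WNT4 1 (2.03).

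Paralogues of the same step were often unequal, in pairings chosen after their values were seen. The muscle phosphofructokinase Pfkm read 9.81, 9.66 and 9.65 on the GFP arrays, 9.39, 9.85 and 9.58 on the Cre arrays and 9.44, 9.82 and 9.56 on the WNT4 arrays, and Cre 3 and WNT4 3 lay within the range of the other arrays. Ldhb, the other lactate dehydrogenase subunit, read 11.57, 11.98 and 11.65 on the GFP arrays, 12.04, 11.87 and 11.47 on the Cre arrays and 12.41, 11.95 and 11.46 on the WNT4 arrays, and was lowest on the 2 arrays on which Ldha was highest. Egln2, the third prolyl hydroxylase gene, read 10.86, 10.78 and 10.75 on the GFP arrays, 10.70, 10.79 and 10.75 on the Cre arrays and 10.97, 11.09 and 11.03 on the WNT4 arrays, and was level while Egln1 and Egln3 were not. Slc16a1, the monocarboxylate transporter MCT1, had gaps of 0.39 and 0.23, beside 3.55 and 2.60 for Slc16a3. Pfkm, Ldhb and Egln2 all read above 9, so these were not dim probe sets.

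The integrated stress response had a different order of arrays. Its 12 genes had a median relative to the GFP mean of 2.03 on WNT4 1, 1.32 on WNT4 3 and 0.48 on WNT4 2, against 0.05 on Cre 3. Ddit3 (CHOP), a transcription factor of this response, read 8.34, 7.75 and 8.07 on the GFP arrays, 8.25, 8.33 and 8.65 on the Cre arrays and 12.31, 9.85 and 10.08 on the WNT4 arrays. Herpud1, a gene of protein quality control in the endoplasmic reticulum, read 8.91, 9.51 and 9.35 on the GFP arrays, 9.51, 9.18 and 9.30 on the Cre arrays and 12.67, 10.44 and 11.38 on the WNT4 arrays. Cre 3, high in the hypoxia genes, lay below every WNT4 array in both. The array high in both lists was WNT4 3, and Vegfa was the member most raised on WNT4 1. The part of this response in Vegfa was not tested.

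Group means were compared over all 9 arrays. By limma, with Benjamini-Hochberg adjustment over all 45037 probe sets, 0 of the 33 members were called at an adjusted p under 0.05 in WNT4 against GFP, where 7 probe sets were called (0.0155%). The members' median difference was 1.09 (2.13-fold), with 31 higher and 2 lower, beside -0.00 over all probe sets. In Cre against GFP 0 members and 0 probe sets (0%) were called, and the members' median was 0.82, with 30 higher, beside -0.02. In WNT4 against Cre 0 members and 0 probe sets (0%) were called, and the median was 0.30, with 28 higher, beside 0.02. At an unadjusted p under 0.05 stood 1 member in WNT4 against GFP and 0 in each of the other comparisons, and 5870 (13%), 1006 (2.23%) and 2808 (6.23%) of all probe sets. The lowest adjusted p of a member was 0.295, 1 and 0.957. The first 2 comparisons share the GFP arrays.

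The errors of most members were wide, with Cre 3 and WNT4 3 far from the other 2 arrays of their groups; no GFP array stood apart in this way. Egln3 differed by 2.18 ± 1.90 (SE) in WNT4 against GFP and by 1.82 ± 1.90 in Cre against GFP. Vegfa differed by 2.05 ± 0.95 and 1.35 ± 0.95, and Ndrg1 by 2.08 ± 1.29 and 1.23 ± 1.29. Hk1, the member at an unadjusted p under 0.05, differed by 0.81 ± 0.28 in WNT4 against GFP (limma adjusted p = 0.295). For Hif1a the differences were 0.06 ± 0.35 and -0.29 ± 0.35, and for Car9 -0.17 ± 0.14 and -0.07 ± 0.14, both within 2 standard errors of 0.

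In the other lists limma called 0 genes in either direction in any comparison. In WNT4 against GFP an unadjusted p under 0.05 was found for 6 of 16 sensing genes, 5 of 40 other HIF targets, 1 of 13 remaining glycolysis genes, 4 of 14 cycle genes, 8 of 12 stress response genes and 1 of 8 receptor genes, beside 13% of all probe sets. Their median differences were 0.21, 0.50, 0.11, 0.27, 1.25 and 0.05. The lowest adjusted p among them was 0.171, for Ddit3 (2.69 ± 0.55) and Herpud1 (2.24 ± 0.46), by limma with Benjamini-Hochberg adjustment. In Cre against GFP the medians of the same lists lay between -0.05 and 0.22, and the other HIF targets had the highest.

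Without Cre 3 and WNT4 3 the members' median was 0.35 in WNT4 against GFP, with 24 higher, and 0.02 in Cre against GFP, with 17 higher. Again 0 members were called in either. Egln3 then differed by 0.11 ± 0.12 and -0.08 ± 0.12, and Slc2a1 by -0.20 ± 0.20 and -0.20 ± 0.20. Vegfa differed by 1.27 ± 0.44 in WNT4 against GFP, which rests on WNT4 1 at 9.17 beside WNT4 2 at 7.43. In WNT4 against Cre the median was 0.33 without both arrays, but it turned to -0.37 without WNT4 3, -0.11 without Cre 1 and -0.03 without Cre 2, and was 1.13 without Cre 3. The direction of that comparison therefore depends on which arrays are kept.

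Groups that did not overlap at all were few for Cre and more frequent for WNT4. For 14 members all 3 WNT4 arrays lay above all 3 GFP arrays, beside 9.28% of all probe sets. For 5 members all 3 Cre arrays did so, beside 2.98%. Of the members, 20 had a mean of at least 9. The 6974 probe sets that bright had medians above the GFP mean on every WNT4 array (0.43, 0.12 and 0.26). The share without overlap among such probe sets alone was not computed. The 14 were Vegfa, Adm, Hk1, Hk2, Aldoc, Tpi1, Pgam1, Bnip3, Higd1a, Egln1, Ndrg1, Bhlhe40, Mxi1 and P4ha2, and the 5 were Vegfa, Hk1, Pfkp, Pgam1 and Higd1a. After quantile normalization the members' median was still 0.85 in WNT4 against GFP and 0.78 in Cre against GFP, but 0.07 in WNT4 against Cre.

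**Figure D5:**
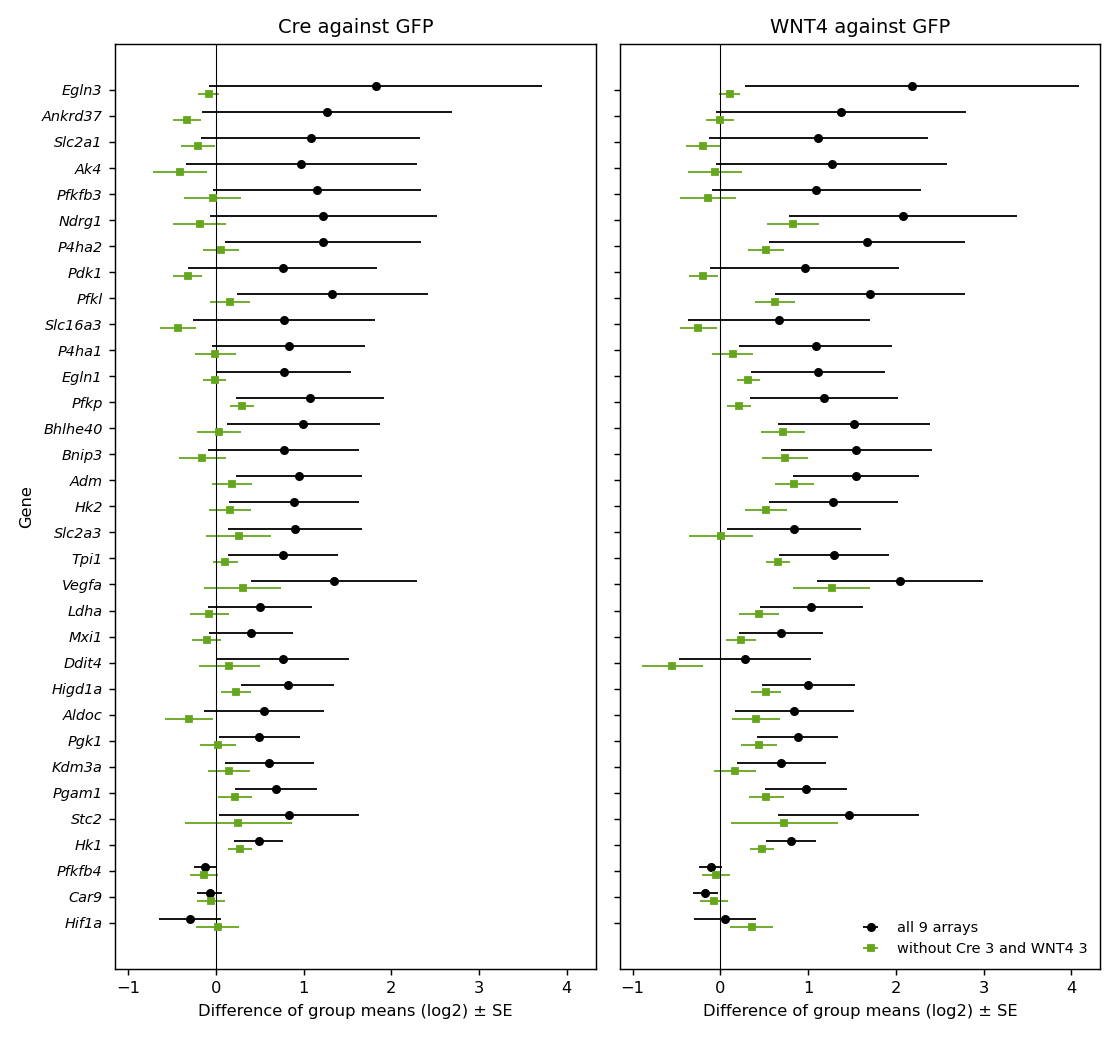
Difference of group means from GFP (log2, horizontal axes) with its standard error for each of the 33 genes, for Cre (left) and WNT4 (right); black points use all 9 arrays and green squares leave out Cre 3 and WNT4 3. With all arrays Egln3 lies at 1.82 ± 1.90 and 2.18 ± 1.90, and without the 2 arrays most genes lie near 0 for Cre and slightly above it for WNT4.

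The identity of the cells was checked with marker genes. Of 18 granulosa markers 14 had a mean of at least 9, among them Inha, Inhba, Foxl2, Amhr2 and Fst, while Amh (mean 5.99) and Nr0b1 (mean 4.58) were dim. The summed level of the list was 15.7 to 15.9 on the GFP arrays, 15.4 to 15.9 on the Cre arrays and 15.6 to 16.0 on the WNT4 arrays, as log2 of the sum, and its median on Cre 3 and WNT4 3 was -0.32 and -0.22. Of 11 leukocyte markers, Csf1r alone had a gap over 1 on both arrays, and the summed level was 11.3 to 11.7, 11.3 to 11.6 and 9.95 to 11.2. Csf1r, a receptor of macrophages, read 7.01, 6.80 and 7.87 on the GFP arrays, 6.83, 7.05 and 8.44 on the Cre arrays and 6.03, 6.60 and 8.23 on the WNT4 arrays. Ptprc, which marks all leukocytes, read 4.46, 4.34 and 5.49 on the GFP arrays, 4.50, 4.84 and 5.69 on the Cre arrays and 4.82, 4.84 and 5.68 on the WNT4 arrays. Both were also higher on GFP 3 than on the other GFP arrays. Cd68, a macrophage marker, had gaps of 0.66 and 0.63 on Cre 3 and WNT4 3, and Fcer1g, an Fc receptor chain of myeloid cells, 0.54 and 0.62. Itgam read between 4.39 and 4.73 on all 9 arrays. The remaining markers were mixed on Cre 3 and WNT4 3. Cd52 had gaps of 0.73 and 0.15, Lyz2 of -0.38 and 0.05, and Tyrobp of 0.09 and -0.38. Cd3e had 0.10 and -0.23, and Cd79a -0.13 and -0.13. Laptm5, whose probe set weighs most in the sum, read 6.98, 10.22 and 8.76 on the WNT4 arrays. It read at least 10.17 on each GFP and Cre array, so the lower summed level of the WNT4 arrays follows this gene. Csf1r, Ptprc, Cd68 and Fcer1g were higher on WNT4 3 than on the other WNT4 arrays, while Tyrobp, Itgam, Cd3e and Cd79a were not. Gaps over 1 on both arrays were seen in 1 of 9 markers of the ovarian surface epithelium (Krt19) and in 0 of 10 endothelial, 0 of 5 erythrocyte, 0 of 10 oocyte and 0 of 11 theca and stroma markers. On WNT4 1 the oocyte markers had a median of 1.62 relative to the GFP mean. It was 0.89 on Cre 1, 0.67 on GFP 2, -0.19 on Cre 3 and -0.04 on WNT4 3. Theca and stroma markers were mixed on WNT4 1. Dcn and Lum read 9.50 and 7.33 there, beside 6.51 and 4.68 on WNT4 2. Acta2 and Tagln, at 10.81 and 8.53, were lower there than on any other array. The part of other cell types in the members' values was not tested, and in RNA from mixed cells fewer cells of a type cannot be told apart from less RNA per cell.

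Array medians were alike, between 5.44 and 5.54, but 75th percentiles ran from 7.68 on GFP 1 to 8.0 on WNT4 1. The difference between 3′ and 5′ probe sets of actin, a measure of RNA integrity, was 1.07 on Cre 3 and 1.30 on WNT4 3, within the 0.98 to 1.38 of all 9 arrays. For Gapdh, itself a glycolytic enzyme, it was 0.95 and 1.36, beside 1.77 to 2.17 on the other 7. Its part in the members' values was not tested.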

How the data were processed

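RNA of 9 granulosa cell samples was measured on Affymetrix mouse expression arrays. The authors deposited log2 values. The submitters' processing notes name RMA as the tool, and no version is given in the sources used here. RMA subtracts background, normalizes between arrays and summarises probes, so differences in total signal are already reduced. Groups and replicate numbers came from the sample titles. The number of arrays, 3 a group, limits the precision. No 2 arrays shared more than 4.53% equal values.

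Of 45101 probe sets, 64 Affymetrix controls were left out. Platform annotation gave 1 symbol to 34945, several to 932 (left unnamed) and none to 9160. Entrez IDs matched 34741 of them to current symbols in a RefSeq table, which gave names but no coordinates of probe sets. A gene with several probe sets was represented by the one of highest mean.

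Differences were fitted with limma 3.58.1 in R 4.3.3 (lmFit, eBayes) on all 9 arrays without covariates, two-sided, with Benjamini-Hochberg adjustment over 45037 probe sets and a threshold of 0.05. The members, lists (oxygen sensing, other HIF targets, remaining glycolysis, pyruvate and citric acid cycle, integrated stress response, receptors, cell type markers) and alternatives were chosen with earlier results of these data known. Named were all 36 members, list genes with the largest gaps or lowest p, and the 10 other genes with the largest smaller gap. Paralogue pairings were added after their values were seen.

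The deviations of same-numbered arrays from their group means had correlations of -0.04, -0.31 and 0.31 for GFP and Cre. For GFP and WNT4 they were -0.08, 0.01 and 0.35. GFP 3 thus deviated with Cre 3 and WNT4 3 more than with the other arrays of those groups. GFP 2 with Cre 1 (0.50) and GFP 1 with WNT4 2 (0.41) were higher still. For Cre and WNT4 the values were 0.21, 0.24 and 0.77. Cre 1 with WNT4 2 (0.28) and Cre 2 with WNT4 1 (0.32) were higher than the first 2. Between these 2 groups only the arrays numbered 3 stood out as a pair. Alternatives were the replicate block, 3 scalings, a filter on means under 6, an intensity trend, array weights, each pair of groups alone, averaging over a gene's probe sets, and arrays left out.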

Additional observations from a re-analysis of the deposited data

How the results depend on the processing

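Between the settings tried, 0 of the 33 members were called by limma in any comparison. With the replicate number as a block the lowest adjusted p of a member was 0.170 in WNT4 against GFP, 1 in Cre against GFP and 0.779 in WNT4 against Cre, and 10, 0 and 0 probe sets were called, so the paired analysis changed no call of a member. Over all settings but the arrays left out one at a time, the members' median lay above 0 in the 3 comparisons.

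The count of probe sets called in WNT4 against GFP, 7 as reported, was unstable. It was 3 after quantile normalization, 17 after centring on the 75th percentile, 15 without probe sets of a mean under 6, 1 with an intensity trend and 2 with a gene's probe sets averaged (18193 genes tested). It was 0 with the arrays of the 2 groups alone, 0 with no Cre 3 and WNT4 3 and 0 with no arrays numbered 3. Leaving out 1 array at a time gave 0 to 748, the highest without WNT4 2, and 0 to 1 in Cre against GFP. The causes were not tested.

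Leaving out 1 array moved the members' median between 0.35 and 1.68 in WNT4 against GFP, 0.02 and 1.29 in Cre against GFP and -0.37 and 1.13 in WNT4 against Cre. The lowest value came without WNT4 3 in the first and last, and without Cre 3 in the second.

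The members counted above the rest of their group changed with the threshold on the gap. At 0.5 the count was 30 on Cre 3, 30 on WNT4 3, 2 on GFP 3 and 1 on WNT4 1. At 2 it was 19 on Cre 3 and 17 on WNT4 3. Centring each array on its 75th percentile, or quantile normalization, left the counts at 28 and 29, while centring on the median, or the mean of all probe sets of a gene, gave 27 on Cre 3 and 26 on WNT4 3. The number of arrays and the dim probe sets of Car9 and Slc16a3, with means under 6, limit what these data can show.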
